A study of Mus musculus with 8 samples.

Results

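Levels of 10 immediate early genes were compared in fibroblasts sorted from mouse lung and in the lung cell suspension they came from: Fos, Fosb, Fosl1 and Fosl2, which make up the Fos family, Jun, Junb and Jund, which make up the Jun family, and Egr1, Atf3 and Ier2. They were taken by name, as every probe whose gene symbol is one of the 10 or a synonym of it, and not by their signal. All 10 had a probe, giving 11 probes on 20 spots of the array, and all 10 were among the 17477 genes tested. Fosl2 has 2 probes, and the Fos probe is printed on 10 spots. Single-colour Agilent arrays measured 8 RNA samples, 2 for each of 3 sorted fibroblast types (A-type, B-type, C-type) and 2 for the unsorted pulmonary single cells. Cells of all 4 groups came fresh from lungs of adult female C57BL/6 mice aged 12 to 16 weeks, with 50000 cells in each sample and 10 ng of its RNA amplified. The sort combined lineage markers of blood, vessel and epithelial cells (CD45, TER119, CD31, CD146, Lyve-1 and E-Cadherin) with Pdgfra, Sca-1 and Thy-1. The combination that defines each type, the number of mice behind a sample and the time cells spent in handling are not given in the sources used here.

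Immediate early genes are transcribed within minutes of a stimulus, from promoters that are already open, without new protein synthesis. Fos and Jun proteins pair through their leucine zippers to form the transcription factor AP-1, while Egr1 binds GC-rich sites through zinc fingers. In fibroblasts, serum, growth factors, mechanical load and injury switch these genes on, and breaking a tissue into single cells with enzymes is known to do so as well.

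Each array's log2 signal was scaled to its own 75th percentile, so that a scaled log2 signal of 0 is the level of the probe at that percentile. This percentile was 110 to 182 units on the 6 fibroblast arrays, against 126 and 250 units on the pulmonary arrays. Between 54.1% and 66.1% of the probes were well above background on the fibroblast arrays, against 68.1% and 68.2% on the pulmonary arrays. Across the genes tested, the arrays of a group correlated at 0.985 in A-type, 0.985 in B-type and 0.946 in C-type fibroblasts, against 0.915 in pulmonary single cells. Both pulmonary arrays were on slide 1 and scan 1 and all 6 fibroblast arrays on slide 2 and scan 2. Only the fibroblasts were sorted. In every comparison with pulmonary single cells the slide, the sorting with its handling and the cells therefore cannot be told apart. The comparisons between fibroblast types lie within slide 2. The 6 fibroblast markers, which include the sorting marker Pdgfra, had a median scaled log2 signal of 6.50 and 6.52 on A-type, 6.33 and 6.54 on B-type and 5.30 and 5.77 on C-type arrays, against 2.55 to 2.93 on pulmonary arrays. Medians of the 7 myeloid markers were -4.21 to -1.87 on fibroblast arrays, against 5.92 and 6.30 on pulmonary arrays. Medians of the 5 endothelial markers were -3.60 to -1.89 on fibroblast arrays, against 3.49 and 3.54 on pulmonary arrays, and those of the 6 epithelial markers were -3.80 to -1.84 on fibroblast arrays, against 1.90 and 2.05 on pulmonary arrays. The lymphocyte markers Cd3g and Ms4a1, the epithelial marker Cdh1, the pericyte marker Rgs5 and the mesothelial markers Msln and Upk3b exceeded background on 0 of the 6 fibroblast arrays. Other markers of these lists did not pass the test for the fibroblast mean. Mcam, which encodes the sorting marker CD146, was at 8.52 to 8.72 on fibroblast arrays, against 8.81 and 8.96 on pulmonary arrays, and Acta2 and Cspg4 of the smooth muscle and pericyte list were likewise not called. The myeloid marker Itgam was at 6.67 to 7.62 on fibroblast arrays, against 8.57 and 6.61 on pulmonary arrays, and the lymphocyte marker Nkg7 at 2.12 to 2.50 on fibroblast arrays, against 2.44 and 4.06 on pulmonary arrays. The part of this difference in cell makeup in the results below was not tested.

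Promoter windows, 250 bases before to 50 bases after the start, were taken from RefSeq's table of GRCm38.p6 for 7 of the 10 genes. Egr1, Fosl1 and Ier2 were not searched, so the counts below do not cover them. Egr1 was left out by its chromosome, whether or not the table held a window for it. Each window was searched on both strands for the AP-1 site TGANTCA, in which N was C or G. Also searched for were the cAMP response element (CRE) TGACGTCA, its core TGACG and the CArG box bound by serum response factor. The EGR site GCGNGGGCG, in which N was any base, and the TATA box TATAAA completed the search. A full CRE also contains the core. The core was present in 4 of 7, in Fos, Fosb, Junb and Atf3, against 21% of all 27018 promoters in the table. Their 250 bases before the start are shown because these genes share this match. The core was added to the search after the data had been seen. Capitals mark the core, with its reverse complement CGTCA in Atf3, and also the TATA box of Fos and the EGR site of Fosb.
Fos promoter, chr12:85473640-85473889, + strand: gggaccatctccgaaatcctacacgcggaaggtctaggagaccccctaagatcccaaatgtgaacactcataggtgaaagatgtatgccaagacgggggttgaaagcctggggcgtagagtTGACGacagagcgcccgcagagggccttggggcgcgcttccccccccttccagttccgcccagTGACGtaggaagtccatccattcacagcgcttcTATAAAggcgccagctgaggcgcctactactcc
Fosb promoter, chr7:19310046-19310295, - strand: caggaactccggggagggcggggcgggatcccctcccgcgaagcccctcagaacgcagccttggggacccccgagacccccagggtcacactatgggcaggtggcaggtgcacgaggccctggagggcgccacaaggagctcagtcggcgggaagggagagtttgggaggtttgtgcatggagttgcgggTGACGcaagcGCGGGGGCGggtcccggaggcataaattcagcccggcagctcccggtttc
Junb promoter, chr8:84978749-84978998, - strand: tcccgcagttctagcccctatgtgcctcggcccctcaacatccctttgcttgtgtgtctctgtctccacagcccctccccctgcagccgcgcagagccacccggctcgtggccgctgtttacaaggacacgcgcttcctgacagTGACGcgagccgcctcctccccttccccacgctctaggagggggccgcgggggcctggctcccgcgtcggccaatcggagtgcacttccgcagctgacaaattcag
Atf3 promoter, chr1:191183334-191183583, - strand: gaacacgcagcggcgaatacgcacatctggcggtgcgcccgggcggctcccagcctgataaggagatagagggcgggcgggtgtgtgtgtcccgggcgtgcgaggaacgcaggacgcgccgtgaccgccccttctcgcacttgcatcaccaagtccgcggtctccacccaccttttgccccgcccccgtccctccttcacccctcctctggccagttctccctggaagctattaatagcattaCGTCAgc
In Fos the core lay at -129 to -125 and again at -66 to -62, counted from the start, with a TATA box at -33 to -28. Fosb had the core at -60 to -56 and an EGR site at -50 to -42. The core of Junb was at -106 to -102, with a TATA box at 1 to 6 after the start, and that of Atf3 at -7 to -3. The EGR site was found in 2 of 7, Fosb and Fosl2, against 5.56% of all promoters, and the TATA box in 2 of 7 against 14.2%. The full CRE, the AP-1 site and the CArG box were in 0 of 7, against 1.88%, 5.17% and 1.57% of all promoters. These matches are letters in a short window and were not tested as binding sites.

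Probes of 3 genes lie early in the transcript, within the coding sequence, and are shown because both Fosl2 probes are set side by side further on and no later probe was present for Junb and Ier2. C-type fibroblasts had the highest fibroblast mean on these 3 probes, and also on the later probes of Fosl2, Jun and Egr1. They start at base 738 of the Fosl2 transcript, base 707 of Junb and base 478 of Ier2, and coordinates are those of mm9, per the file headers. No letters are in capitals.
Fosl2 earlier probe, chr5:32455088-32455147, + strand: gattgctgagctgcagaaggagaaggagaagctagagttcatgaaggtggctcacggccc
Junb probe, chr8:87501881-87501940, - strand: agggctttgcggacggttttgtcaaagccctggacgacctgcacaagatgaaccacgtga
Ier2 probe, chr8:87186214-87186273, - strand: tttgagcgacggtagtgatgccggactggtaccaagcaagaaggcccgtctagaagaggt
The other Fosl2 probe starts at base 5726, 4988 bases further on, and is the brighter probe, so it stands for the gene. Starts of the remaining probes were base 1262 in Fosl1, 1545 in Atf3, 1773 in Fos, 1926 in Jun, 2797 in Jund, 2856 in Egr1 and 3593 in Fosb.

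Most of the family was higher in the fibroblasts than in the suspension. Of the 10 genes, 7 rose in the mean of the 3 fibroblast types over pulmonary single cells (Egr1, Fosb, Jund, Fos, Jun, Atf3 and Fosl2), 0 fell, and 3 (Ier2, Junb and Fosl1) did not pass the test. The test was limma's moderated test with a Benjamini-Hochberg adjusted p under 0.05 over all genes. By the same test 36.7% of all genes were called, 20.4% higher and 16.3% lower in fibroblasts. The median log2 difference was 1.11 over the 10 genes and 0.09 over all genes tested. All 6 fibroblast arrays lay above both pulmonary arrays for 8 of the 10 genes, all but Fosl1 and Junb, as they did for 23.5% of all genes. In bulk RNA of this kind, fewer cells that express a gene and less RNA per cell cannot be told apart.

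**Figure D1:**
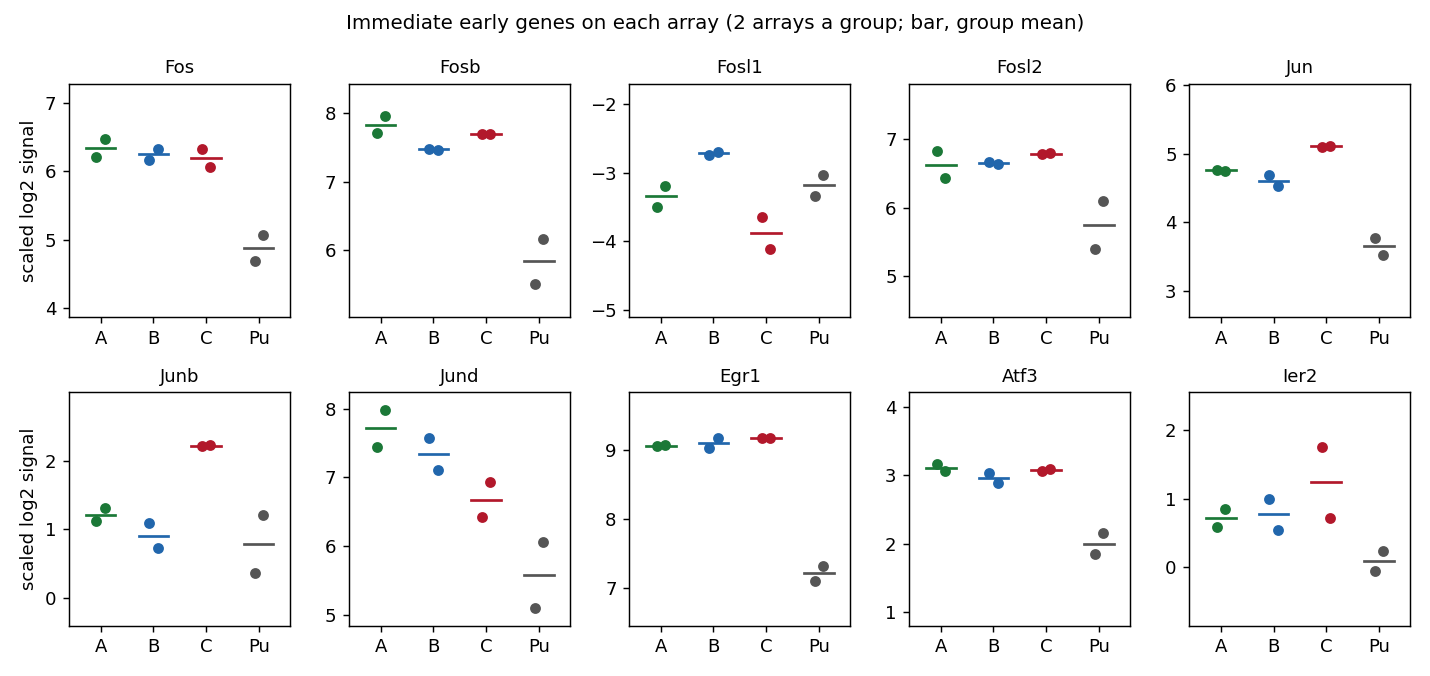
Scaled log2 signal (vertical axes) of the 10 immediate early genes on the 8 arrays, as points by group, with the group mean as a bar. The 6 fibroblast points lie above both pulmonary (Pu) points for 8 genes, and the Junb and Fosl1 points overlap with them.

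The Fos family holds the partners that must pair with a Jun protein to bind DNA. Scaled log2 signal of Fos, its founding member, was 6.20 and 6.47 on the A-type, 6.17 and 6.33 on the B-type, and 6.33 and 6.06 on the C-type arrays, against 4.69 and 5.07 on the pulmonary arrays. The fibroblast arrays did not overlap with the pulmonary ones, and the 3 types overlapped with each other. The fibroblast mean of Fos was 1.38 ± 0.24 (SE) higher on the log2 scale, or 2.60-fold, with a limma adjusted p of 0.00441. Within an array, 9 or 10 Fos spots entered its value after 4 spots called outliers were dropped, with an SD of 0.036 to 0.075 between spots of an array, which covers the printing and not the samples.

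Fosb encodes a Fos protein with a long and a truncated form. The arrays gave a scaled log2 signal of 7.71 and 7.95 on the A-type, 7.48 and 7.47 on the B-type, and 7.70 and 7.69 on the C-type arrays, against 5.51 and 6.17 on the pulmonary arrays. The lowest fibroblast array stood 1.29 above the higher pulmonary array. The log2 difference of Fosb was 1.83 ± 0.26 (SE), or 3.55-fold, with a limma adjusted p of 0.00175.

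Fosl2 encodes Fra-2, a Fos-related protein without the strong activation domain of Fos, whose overexpression in mice leads to lung fibrosis. On its brighter probe the scaled log2 signal was 6.83 and 6.43 on the A-type, 6.66 and 6.64 on the B-type, and 6.78 and 6.79 on the C-type arrays, against 5.39 and 6.10 on the pulmonary arrays. The groups did not overlap, and the gap between the lowest fibroblast and the higher pulmonary array was 0.33. The fibroblast mean of Fosl2 rose by 0.94 ± 0.27 (SE), or 1.92-fold, with a limma adjusted p of 0.0329. This call was lost without Pu1 (log2 difference 0.58, adjusted p 0.112), A1, A2, B1 or B2 (adjusted p 0.0611 to 0.0863), and the other probe of the gene did not show it, as described further on.

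Fosl1 encodes Fra-1, which accumulates later after a stimulus than Fos. It was the only one of the 10 not well above background on all 8 arrays, being so on 6 of 8 and on neither C-type array. Its scaled log2 signal was -3.50 and -3.19 on the A-type, -2.74 and -2.69 on the B-type, and -3.65 and -4.11 on the C-type arrays, against -3.34 and -3.03 on the pulmonary arrays. The B-type arrays lay above both pulmonary arrays, the C-type arrays below both, and the A-type arrays overlapped with them. The fibroblast mean of Fosl1 differed by -0.13 ± 0.25 (SE), with a 95% interval of -0.72 to 0.46 and a limma adjusted p of 0.707. This difference was above 0 without Pu2 and under 4 other scalings or background corrections.

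The Jun family can form AP-1 dimers within itself as well as with Fos proteins. Jun, the main activating member, had a scaled log2 signal of 4.76 and 4.75 on the A-type, 4.69 and 4.53 on the B-type, and 5.10 and 5.11 on the C-type arrays, against 3.77 and 3.53 on the pulmonary arrays. The C-type arrays were the highest and the pulmonary arrays the lowest, with no overlap. The log2 difference of Jun between the fibroblast mean and pulmonary single cells was 1.17 ± 0.22 (SE), with a limma adjusted p of 0.00565.

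Junb encodes a weaker activator that can oppose Jun. Its scaled log2 signal was 1.12 and 1.31 on the A-type, 1.09 and 0.72 on the B-type, and 2.21 and 2.23 on the C-type arrays, against 0.36 and 1.21 on the pulmonary arrays. Both C-type arrays stood above the other 6, while A-type and B-type arrays overlapped with the pulmonary ones. The fibroblast mean of Junb differed by 0.66 ± 0.29 (SE), with a 95% interval of -0.03 to 1.34 and a limma adjusted p of 0.119. Pu2 decided this: without it the difference was 1.08 and the adjusted p 0.0172.

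Jund encodes the family member that is usually present in resting cells and is induced least. Scaled log2 signal was 7.45 and 7.98 on the A-type, 7.57 and 7.11 on the B-type, and 6.42 and 6.93 on the C-type arrays, against 5.10 and 6.05 on the pulmonary arrays. It was the only one of the 10 genes whose C-type arrays both lay below all A-type and B-type arrays while staying above the pulmonary ones. The fibroblast mean of Jund was 1.67 ± 0.35 (SE) higher, or 3.18-fold, with a limma adjusted p of 0.00961. Without Pu1 the difference was 1.19 and the adjusted p 0.0501, and with array weights it was 0.0795.

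Egr1, a zinc-finger factor that acts downstream of TGF-beta and growth factors in fibroblasts, had the most even level in the fibroblasts. Its scaled log2 signal was 9.06 and 9.07 on the A-type, 9.04 and 9.17 on the B-type, and 9.19 and 9.18 on the C-type arrays, against 7.10 and 7.32 on the pulmonary arrays. The 6 fibroblast arrays spanned 0.15, the narrowest span of the 10 genes, and the lowest of them stood 1.72 above the higher pulmonary array. Egr1 showed the largest log2 difference of the 10, 1.91 ± 0.21 (SE), or 3.75-fold, with a limma adjusted p of 0.00065. In this comparison Egr1, Fos, Fosb and Jun were called in the fit without any 1 of the 8 arrays.

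Atf3, a stress-induced factor of the ATF/CREB family that pairs with Jun proteins, was similarly even. Scaled log2 signal was 3.16 and 3.06 on the A-type, 3.03 and 2.89 on the B-type, and 3.07 and 3.09 on the C-type arrays, against 1.86 and 2.15 on the pulmonary arrays. The fibroblast arrays spanned 0.27 and did not overlap with the pulmonary arrays. Atf3 rose by 1.04 ± 0.22 (SE), or 2.06-fold, with a limma adjusted p of 0.0098, which became 0.0708 with array weights.

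Ier2 encodes a small nuclear protein induced by growth factors. The 8 values of scaled log2 signal were 0.58 and 0.85 on the A-type, 1.00 and 0.54 on the B-type, and 1.75 and 0.72 on the C-type arrays, against -0.06 and 0.23 on the pulmonary arrays. All fibroblast arrays lay above the pulmonary arrays, and C1 stood apart from its replicate by more than the span of the other fibroblast arrays. The log2 difference of Ier2 was 0.82 ± 0.33 (SE), with a 95% interval of 0.03 to 1.60 and a limma adjusted p of 0.0948. Without C2 the difference was 0.99 and the adjusted p 0.0281.

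Each fibroblast type was then set against the pulmonary single cells, whose 2 arrays all 3 comparisons share. In A-type fibroblasts 6 of 10 genes rose (Fos, Fosb, Jun, Jund, Egr1 and Atf3) and 0 fell, where 26.8% of all genes were called, 14.9% higher and 11.8% lower. The same 6 genes rose and 0 fell in B-type fibroblasts, where 29.2% of all genes were called, 16.3% higher and 13% lower. In C-type fibroblasts 6 rose (Fos, Fosb, Jun, Junb, Egr1 and Atf3) and 0 fell, where 28.7% of all genes were called, 14.8% higher and 13.8% lower. The median log2 difference of the 10 genes was 1.11 in A-type, 0.96 in B-type and 1.23 in C-type fibroblasts, against 0.11, 0.11 and 0.05 over all genes.

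Jund and Junb were called in different types. Jund was 2.14 ± 0.43 (SE) higher in A-type and 1.76 ± 0.43 higher in B-type fibroblasts than in pulmonary single cells (limma adjusted p 0.0104 and 0.0212). In C-type fibroblasts its difference was 1.10 ± 0.43, with an adjusted p of 0.0977. Junb was 1.43 ± 0.36 higher in C-type fibroblasts (adjusted p 0.0238), against 0.43 ± 0.36 in A-type and 0.12 ± 0.36 in B-type fibroblasts (adjusted p 0.41 and 0.827). Whether these effects differed between the types is given by the comparisons between types below. Fosl2 missed the threshold in each type, with log2 differences of 0.88, 0.90 and 1.04 in A-, B- and C-type fibroblasts and adjusted p of 0.0943, 0.0829 and 0.0559. Egr1 was higher by 1.86 in A-type, 1.89 in B-type and 1.97 in C-type fibroblasts, with adjusted p of 0.00248, 0.00226 and 0.00197.

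With 2 arrays a group, leaving out an array leaves 1 in its group and fewer degrees of freedom. A call can then be lost where the difference hardly moves. Without A1 and without A2 the A-type difference of Jun was 1.10 and 1.11, against 1.11 on all arrays. The B-type difference of Jund moved more, to 1.53 without B1 and 2.00 without B2, against 1.76. Without any 1 A-type or B-type array the C-type difference of Junb stayed at 1.43. Leaving out A1 or A2 reduced the calls in A-type fibroblasts to 3 and 2 genes, and leaving out B1 or B2 reduced those in B-type fibroblasts to 1 gene. The same held in C-type fibroblasts when C1 or C2 was left out. The Junb call there was lost without any 1 of the 6 fibroblast arrays. Egr1 was called in each of the 3 types without any 1 array.

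**Figure D2:**
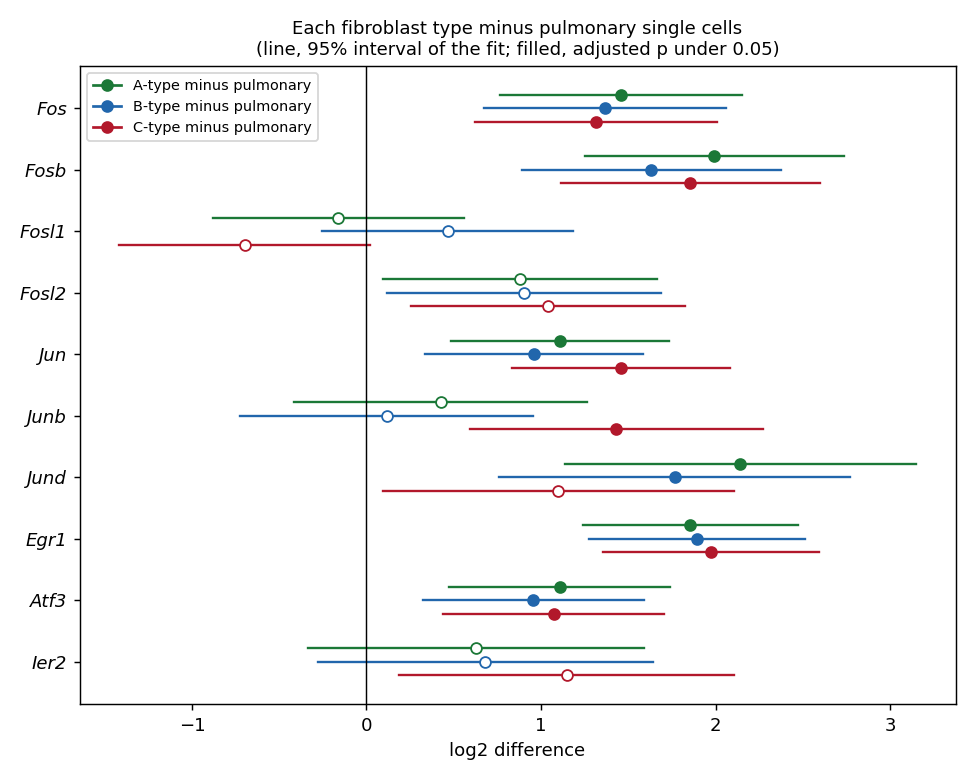
Log2 difference (horizontal axis) of each fibroblast type minus pulmonary single cells for the 10 genes, with the 95% interval of the fit as a line and filled points where the adjusted p is under 0.05. Egr1 lies between 1.86 and 1.97 in all 3 types, whereas Junb lies at 0.43, 0.12 and 1.43 in A-, B- and C-type fibroblasts.

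Between fibroblast types, none of the 10 genes passed the limma test at an adjusted p under 0.05. The A-type minus B-type comparison called 0 of 10 genes and 0% of all genes. The A-type minus C-type comparison called 0 of 10 and 0.389% of all genes, and B-type minus C-type called 0 of 10 and 2.42% of all genes (1.26% higher and 1.16% lower). At an unadjusted p under 0.05 the counts were 0, 2 and 2 of the 10 genes in these comparisons, against 565, 2266 and 2657 of all 17477 genes.

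The order of the types was read from the group means with the spread of each pair of arrays. Egr1 averaged 9.07 ± 0.01 in A-type, 9.11 ± 0.10 in B-type and 9.19 ± 0.00 in C-type fibroblasts (SD, n = 2 each), and the A-type minus B-type difference of -0.04 had a 95% interval of -0.66 to 0.58. Fos averaged 6.34 ± 0.19, 6.25 ± 0.11 and 6.19 ± 0.19 in A-, B- and C-type fibroblasts (SD, n = 2 each), neighbours closer than their spread. Over all differences between types for the 10 genes, the 95% intervals reached from -2.15 to 2.05, which 2 arrays a group could not narrow further.

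Junb had its highest mean in C-type fibroblasts, with 1.21 ± 0.13 in A-type and 0.90 ± 0.26 in B-type fibroblasts, against 2.22 ± 0.01 in C-type fibroblasts (SD, n = 2 each). Its log2 difference was -1.01 ± 0.36 (SE) for A-type minus C-type and -1.31 ± 0.36 for B-type minus C-type, with limma adjusted p of 0.3 and 0.128 and unadjusted p of 0.0253 and 0.00758. The B-type minus C-type difference of Junb does not use the pulmonary arrays. Without Pu1 or without Pu2 it stayed at -1.31, and only the estimate of spread shared by the groups changed. Jund ran the other way, averaging 7.71 ± 0.37 in A-type, 7.34 ± 0.33 in B-type and 6.67 ± 0.36 in C-type fibroblasts (SD, n = 2 each). The A-type minus C-type difference of Jund was 1.04 ± 0.43 (SE), with a limma adjusted p of 0.367 and an unadjusted p of 0.0441.

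Jun averaged 4.76 ± 0.00 in A-type, 4.61 ± 0.12 in B-type and 5.11 ± 0.01 in C-type fibroblasts (SD, n = 2 each). Its C-type arrays lay above all A-type and B-type arrays, yet the differences of -0.35 for A-type minus C-type and -0.50 for B-type minus C-type had limma adjusted p of 0.608 and 0.45. Fosl1 was 1.16 ± 0.30 (SE) higher in B-type than in C-type fibroblasts, with a limma adjusted p of 0.118. Since neither C-type array measured Fosl1 well above background, this corresponds to at least 1.76-fold, with C1 taken at its own signal and C2 at its lowest signal above background, which was the higher value on each array.

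**Figure D3:**
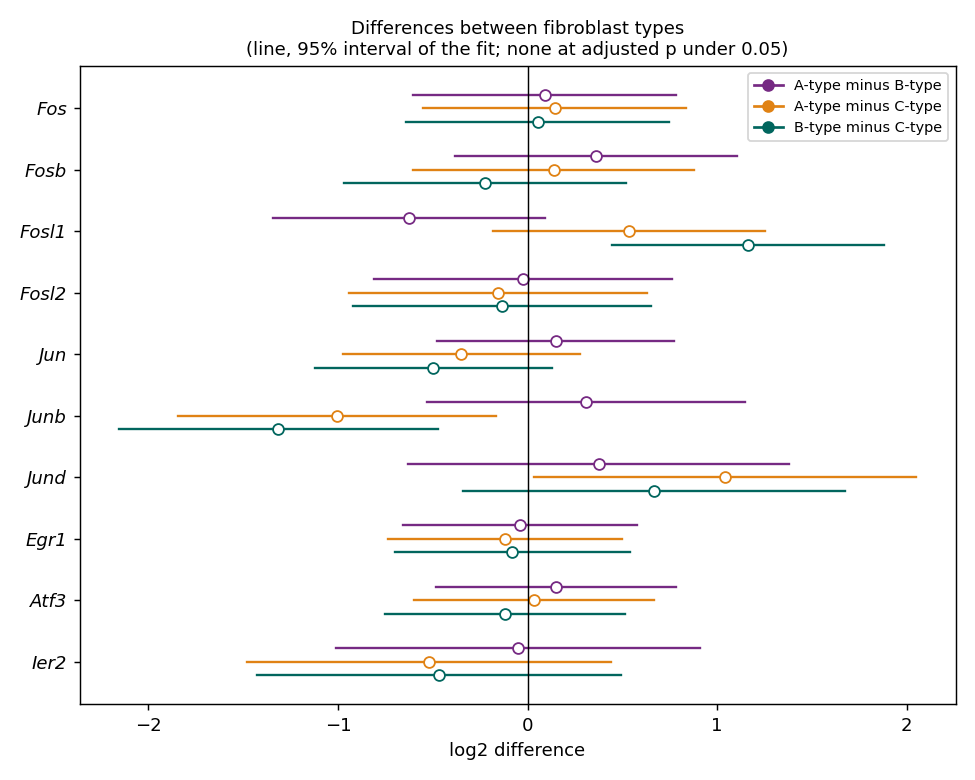
Log2 difference (horizontal axis) between fibroblast types for the 10 genes, with the 95% interval of the fit as a line and open points because none had an adjusted p under 0.05. Intervals of Junb lie below 0 for A-type minus C-type and B-type minus C-type, and above 0 for Fosl1 in B-type minus C-type and for Jund in A-type minus C-type.

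The 2 Fosl2 probes gave different patterns. The earlier probe, at base 738, had a scaled log2 signal of 3.18 and 3.18 on the A-type, 3.10 and 3.04 on the B-type, and 4.01 and 3.996 on the C-type arrays, against 3.56 and 3.16 on the pulmonary arrays. Only the C-type arrays lay above both pulmonary arrays, unlike the later probe, where all 6 fibroblast arrays did. In the fit with this probe in place of the later one, an alternative added after seeing the data, the log2 difference of Fosl2 was 0.06 for the fibroblast mean, with a limma adjusted p of 0.86. It was -0.18 in A-type, -0.29 in B-type and 0.64 in C-type fibroblasts, against 0.88, 0.90 and 1.04 on the later probe.

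Across the array, the difference between a later and an earlier probe of a transcript, at least 1000 bases apart, was examined as a description in 1266 pairs. The later probe gave the higher fibroblast minus pulmonary difference in 64.1% of the pairs, by a median of 0.28. This median was 0.39 for A-type, 0.34 for B-type and 0.11 for C-type fibroblasts. For Fosl2 the later probe exceeded the earlier by 0.88 for the fibroblast mean, more than in 75.4% of the pairs, and by 1.06, 1.19 and 0.40 for A-, B- and C-type fibroblasts. The part of probe position in the results for genes with 1 probe was not tested.

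**Figure D4:**
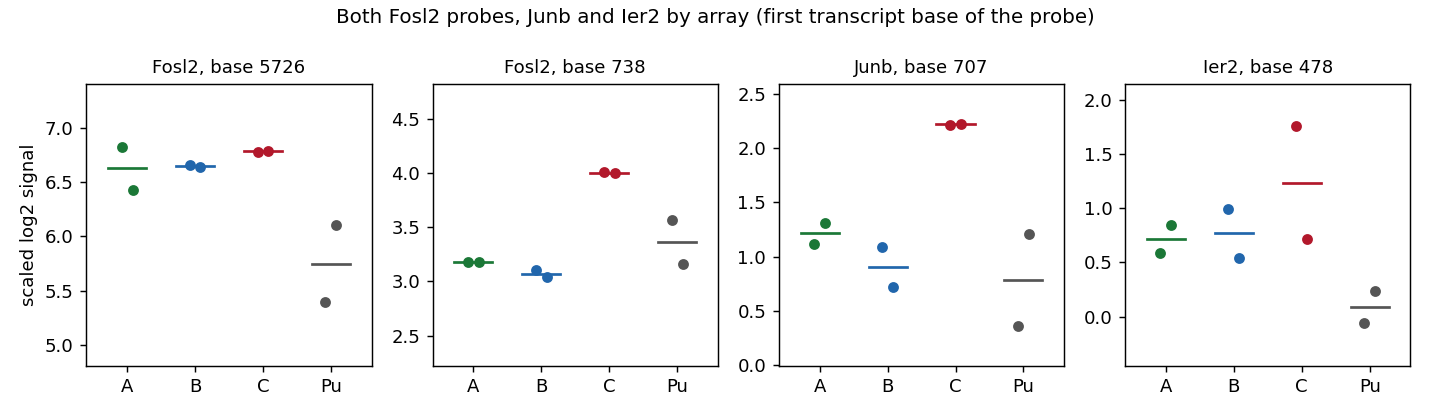
Scaled log2 signal (vertical axes) of both Fosl2 probes, Junb and Ier2 on the 8 arrays, as points by group with the group mean as a bar. The later Fosl2 probe shows all 6 fibroblast points above both pulmonary points, whereas on the earlier Fosl2 probe only the C-type points do so. The C-type points of Junb lie above all others.

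A wider set of 108 genes of the same response was described by list, of which 105 were tested. In the mean of the fibroblast types 33 rose over pulmonary single cells, 18 fell and 54 did not pass the test, against 20.4% higher and 16.3% lower over all genes. Among the EGR family and its NAB corepressors 2 of 5 rose and 0 fell, with a median log2 difference of 0.87. Egr2, a close relative of Egr1, had a scaled log2 signal of 3.97 and 3.99 on the A-type, 4.03 and 4.24 on the B-type, and 4.61 and 4.60 on the C-type arrays, against 1.39 and 2.41 on the pulmonary arrays. It was 5.05-fold higher in fibroblasts, with a log2 difference of 2.34 ± 0.31 (SE) and a limma adjusted p of 0.00128, and its groups did not overlap.

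The other AP-1 partners had 4 of 12 higher and 2 lower, with a median of 0.66. For this list and the next, the shares over all genes were 20.4% higher and 16.3% lower. Maff, a small Maf protein, was higher by 2.64 ± 0.51 (limma adjusted p 0.00692), while Batf, an AP-1 partner known from lymphocytes and dendritic cells, was at least 11.8-fold lower in fibroblasts (limma adjusted p 0.000848) and well above background on 1 of 6 fibroblast arrays. Other immediate early transcription factors had 8 of 19 higher and 1 lower, with a median of 0.91. Cebpd, a C/EBP factor of the acute-phase response, rose by 2.86 ± 0.29 (adjusted p 0.00043), and the inhibitor of basic helix-loop-helix factors Id1 fell by 1.09 on the log2 scale (adjusted p 0.0426). Its relative Id2 was 2.36 ± 0.44 higher in B-type than in C-type fibroblasts (adjusted p 0.0443). Nr4a2 of the same list, chosen after its values were seen, went the other way. Its B-type minus C-type difference was -2.28 ± 0.33 (limma adjusted p 0.0201).

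Of the feedback genes, which end the response, 6 of 26 were higher, 4 lower and 16 not called, close to the 20.4% higher and 16.3% lower over all genes, and their median was 0.18. Spry1, an inhibitor of receptor tyrosine kinase signalling, rose by 1.85 ± 0.23 (limma adjusted p 0.000972), and the MAP kinase phosphatase Dusp2, known from immune cells, was at least 66.9-fold lower in fibroblasts (adjusted p 2.85e-05), with 4 of 6 fibroblast arrays above background. The kinase gene Sgk1 was lower in B-type than in C-type fibroblasts, by -2.13 ± 0.35 (adjusted p 0.029). Secreted and signalling products were split as well, 5 of 12 higher and 5 lower, with a median of 0.80. The matricellular gene Ccn1 rose by 2.86 ± 0.29 (adjusted p 0.000433), and Areg, a ligand of the EGF receptor, was at least 5.58-fold lower (adjusted p 0.000114), with 0 of 6 fibroblast arrays above background. Edn1, which encodes endothelin, was at least 2.68-fold higher in B-type than in C-type fibroblasts (adjusted p 0.00697), with neither C-type array above background. Thbs1, the thrombospondin gene, chosen after its values were seen, was above background on all arrays and 9.15-fold lower in B-type than in C-type fibroblasts (adjusted p 0.00562).

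Upstream factors and kinases had 2 of 15 higher and 3 lower, close to the 20.4% higher and 16.3% lower over all genes, with a median of -0.07. The same shares over all genes apply to the lists that follow. Srf, which encodes the serum response factor that drives Fos and Egr1, rose by 1.36 ± 0.31 (limma adjusted p 0.0139), and the p38 kinase gene Mapk14 was lower by -1.35 ± 0.28 (adjusted p 0.00992). Of the heat shock genes, which cell dissociation is also known to induce, 4 of 9 tested rose and 0 fell, with a median of 0.61, and the chaperonin gene Hspd1 led them at 1.43 ± 0.31 (adjusted p 0.0107). AP-1 target genes of matrix turnover had 2 of 7 tested higher and 3 lower, with a median of -0.42. The matrix metalloproteinase gene Mmp3 was 26.4-fold higher (adjusted p 9.7e-05), and Mmp9, a gelatinase gene of neutrophils and macrophages, was at least 10.8-fold lower (adjusted p 2.41e-05), with 0 of 6 fibroblast arrays above background. Since that is a bound, Plaur, the urokinase receptor gene, is given too, chosen after its values were seen: it was above background on all arrays and 17-fold lower in fibroblasts (adjusted p 0.000352). Plau, the urokinase gene, was higher by 5.96 ± 0.74 in B-type than in C-type fibroblasts (adjusted p 0.0108) as measured. Its C-type arrays differed widely, at -2.80 and -5.36, and 1 of them was above background, so with the other set to its lowest signal above background the difference was at least 4.99, or 31.8-fold. In the A-type minus B-type and A-type minus C-type comparisons 0 of 105 genes were called, against 0% and 0.389% of all genes. In B-type minus C-type 3 were higher and 3 lower, against 1.26% and 1.16% of all genes.

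**Figure D5:**
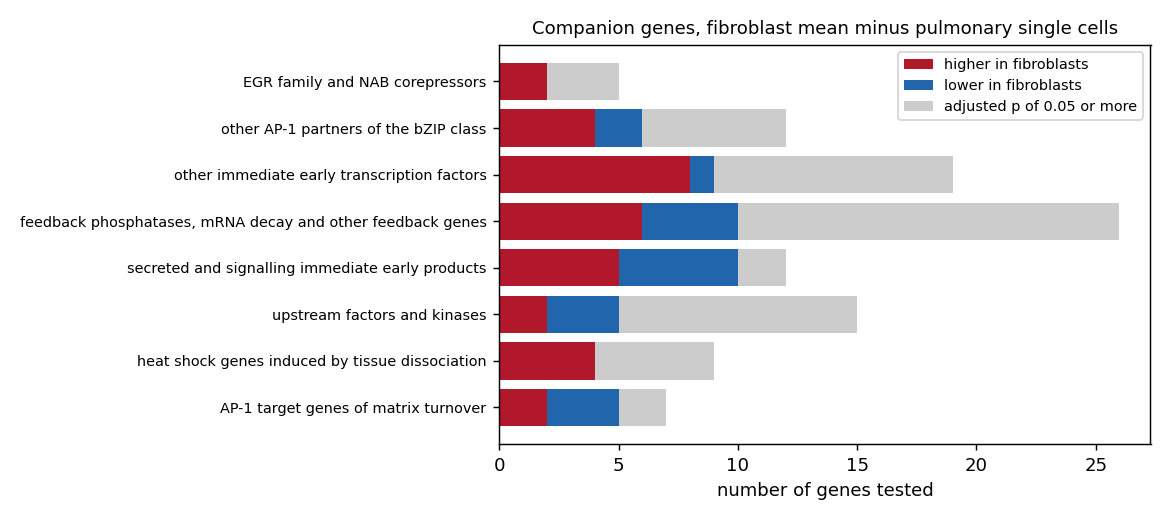
Number of genes tested (horizontal axis) in each of the 8 lists, divided into those higher in fibroblasts, lower in fibroblasts and not called, in the fibroblast mean minus pulmonary single cells. The 2 lists with no lower gene are the EGR family with its corepressors and the heat shock genes.

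The genes closest in profile to Fos, Jun and Egr1 were sought among 12927 genes well above background on all 8 arrays, by the mean absolute difference of the centred log2 profiles. Closest to Fos were Ube2v2, Elp2 and Micos10, at distances of 0.0816, 0.0819 and 0.083. Closest to Jun were Frs2, Sqstm1 and Rufy1, at 0.0737, 0.086 and 0.0869, and closest to Egr1 were Dnajc10, Ifi27 and Mesd, at 0.0693, 0.0902 and 0.0986. Within the family the nearest to Egr1 was Fosb, ranked 76 at a distance of 0.17, and the nearest to both Fos and Jun was Atf3, ranked 242 and 189. Of the members ranked, Junb was the farthest from Fos and from Egr1, ranked 7394 and 6251, and Jund the farthest from Jun, ranked 8360. Fosl1, not well above background on all 8 arrays, was not ranked. These distances rest on 8 arrays that share the 4 groups, and many genes with a like difference between fibroblasts and pulmonary single cells lay closer than the family members.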

How the data were processed

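The deposited scanner files hold background-subtracted spot intensity (processed signal) from Agilent Feature Extraction 10.10.1.1, per the file headers and the submitters' processing notes. The authors' deposited value table holds log2 values that equal the log2 processed signal minus a constant per array, within 0.02 for 100% of 55653 probes. Its column medians were 4.84 or 4.85, and it was used as an alternative. RNA was amplified, labelled with Cy3 and hybridised to 1 array per sample, per the labels' protocols.

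Control spots, and spots called outliers, were left out, which removed 28 of 55681 probes, and spots of a probe were averaged. The log2 signal was scaled by subtracting each array's 75th percentile. Genes were named through RefSeq. Probes had to exceed background, by the scanner software's call, on both arrays of some group, and the probe with the highest mean signal stood for its gene, leaving 17477 of 24038 named genes. One fit of the 4 group means over all 8 arrays used limma 3.58.1 in R 4.3.3 (4 residual and 3.07 prior degrees of freedom), with Benjamini-Hochberg adjustment within each of the 7 comparisons. "At least" folds set the brighter group against the dim probe's signal or, where higher, that array's lowest signal above background. They leave out the error of the difference. Replicates were separately prepared samples, and their number limits the precision. The script was tested on simulated data. Python 3.11.15, numpy 2.4.6, pandas 2.3.3 and matplotlib 3.10.9 read, summarised and drew the data.

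The 10 genes, the 8 wider lists and the marker lists were chosen with earlier results of these data known. Every one of the 10 is named. In the wider lists, named genes are the called gene with the largest positive and largest negative difference of the fibroblast mean, and the called gene with the largest difference between types, ranked by the fitted difference, which for genes below background in a group has no exact size. Alternatives were other scalings, background corrections, filters, probe choices, variance settings and sets of arrays, the replicate number as a block, and each array left out in turn. Smooth muscle and pericyte, mesothelial and erythroid markers had median log2 differences of -0.63, -4.95 and -5.57 between fibroblasts and pulmonary single cells, with 0 higher and 2 of 5, 2 of 3 and 2 of 2 tested lower. Lymphocyte markers had a median of -4.41, with 5 of 6 lower.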

Additional observations from a re-analysis of the deposited data

Results flagged for a closer look

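Fosl1 was the only one of the 10 genes whose arrays moved in opposite directions in 2 fibroblast types relative to pulmonary single cells. Both B-type arrays (-2.74 and -2.69 scaled log2 signal) lay above both pulmonary arrays and both C-type arrays (-3.65 and -4.11) lay below them (-3.34 and -3.03). The difference between the types, B-type minus C-type, was 1.16 on the log2 scale, with a limma adjusted p of 0.118 and an unadjusted p of 0.00644. Over the alternatives its adjusted p was 0.0693 to 0.515 and its value 0.25 to 1.39. Neither C-type array was well above background for Fosl1. The group means as scaled here therefore correspond to at least 1.76-fold, a bound that leaves out the error of the difference.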

How the results depend on the processing

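Slide or scan could not be fitted as a block, since slide and group cannot be told apart in comparisons with pulmonary single cells. Replicate numbers did not pair the samples: the correlations of replicate deviations between groups were -0.08 to 0.06. With the replicate block 6 of the 10 genes were called in the fibroblast mean, against 7 without it, and 0 of all genes in A-type minus C-type, against 68. Where an array is left out, the lone array of its group is assumed to vary like the other groups.

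Scaling sets the centre of all differences. For the fibroblast mean the median over all genes was 0.09, but 0.45 with median scaling or the authors' table, -0.22 with a percentile taken only over probes detected on every array and 0.26 with the strict filter on dim probes. The share of calls that were higher was 55.7%, but 71.5% with median scaling, 71.6% with the authors' table, 39.2% with that percentile and 70.8% with the strict filter, and the median of the 10 genes was 1.11, 1.47, 1.47, 0.80 and 1.17 in the same order. In the fibroblast mean Egr1, Fos, Fosb and Jun were called in all 20 alternatives, Atf3 in 19, Jund in 18, Ier2 in 3 and Junb in 1 of 20, Fosl2 in 8 of 21 and Fosl1 in 0 of 19.

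Array weights called 4 of the 10 in the fibroblast mean, 3 in B-type and 2 in C-type minus pulmonary, and 3112, 3402 and 2160 of all genes there, against 6414, 5107 and 5008. With only the arrays compared, 3 of the 10 were called in B-type and 1 in C-type minus pulmonary, with 3568 and 2273 of all genes. With every probe tested, 2 and 3 of the 10 were called there, with 5346 and 5608 of all 55653 probes. When an array was left out, 5 to 8 of the 10 were called in the fibroblast mean, 2 to 7 in A-type, 1 to 7 in B-type and 3 to 8 in C-type minus pulmonary, and 0 to 1 in B-type minus C-type. Counts of all genes were then 2151 to 6830 in A-type and 2352 to 7045 in B-type minus pulmonary, against 4678 and 5107, 0 to 493 in A-type minus C-type and 2 to 933 in B-type minus C-type. In A-type minus B-type, 0 genes became 10 with normexp correction, 236 with array weights and 4 with trend and robust variance. In A-type minus C-type, 68 genes became 170, 218 and 137 under these settings, 1 without the filter, and 0 with only the arrays compared or with every probe tested. In B-type minus C-type, 423 genes became 247 without the filter, 740 with array weights, 126 with only the arrays compared and 195 with every probe tested.

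Signs turned only for differences that were not called. For Fosl1 in the fibroblast mean the difference was 0.23 with median scaling, 0.28 with quantile normalization, 0.079 with normexp and 0.23 with the authors' table, and -0.28 to 0.024 with an array left out. In A-type minus pulmonary it was 0.17, 0.23, 0.072 and 0.18 under the same scalings and corrections. Junb in B-type minus pulmonary was -0.21 with the percentile over detected probes, -0.0006315 with quantile normalization, -0.037 with normexp and -0.31 to 0.54 with an array left out. The earlier Fosl2 probe, added after seeing the data, gave -0.18 and -0.29 in A-type and B-type minus pulmonary and 0.11 in A-type minus B-type. In A-type minus B-type Fosl2 was also 0.0093 with the percentile over detected probes and 0.043 with the mean of its probes. With an array left out, A-type minus B-type was -0.22 to 0.17 for Fosl2, -0.042 to 0.22 for Fos, -0.11 to 0.029 for Egr1 and -0.28 to 0.17 for Ier2. A-type minus C-type was -0.026 for Fosb with quantile normalization and -0.039 and -0.035 for Atf3 with median scaling and the authors' table. With an array left out it was -0.36 to 0.039 for Fosl2, -0.014 to 0.080 for Atf3 and -1.04 to 0.00041 for Ier2. B-type minus C-type was -0.080 and -0.050 for Fos with quantile normalization and normexp, 0.014 for Egr1 with normexp and, with an array left out, -0.080 to 0.19 for Fos and -0.98 to 0.053 for Ier2.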
